A study of Mus musculus with 2 samples.

Results

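The genes described here encode collagens, laminins and other proteins of the stromal matrix. They were taken as every row of the value table that the platform annotation gives exactly 1 gene symbol, where that symbol names a collagen chain (Col, a number, a, a number) or a laminin chain (Lama, Lamb or Lamc with a number), or is Sparc, Vim, Fn1, Fstl1, Dcn or Lum. This gave 58 genes of the 18110 named protein-coding genes on the array, each with 1 row. They were split into 20 genes of fibroblast matrix, 16 basement membrane chains (collagen IV and laminins) and 22 other collagens. The assay was the Clariom D mouse array of Affymetrix, on which total RNA is read with probes to transcripts of all kinds. RNA of circPan3-/- cells was on 1 array, these cells being deleted for a circular RNA that the Pan3 gene gives rise to, and RNA of circPan3+/+ cells was on the other. Both came from 8-week-old mice that also carried Lgr5GFP-CreERT2, an allele in which the Lgr5 gene drives green fluorescent protein and an inducible Cre. The cells were sorted from the small intestine as GFP-positive intestinal stem cells, and the number of mice behind each array is not stated. With a single array of each genotype, replicate spread is unknown and nothing could be tested, so each difference below is one between 2 arrays rather than 2 genotypes.

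Collagen chains wind around each other into a triple helix. Collagens I, III and V form the fibrils of connective tissue, and collagen IV forms a flat network in the basement membrane, the sheet on which the epithelium and the vessel wall rest. A laminin is a trimer of an alpha, a beta and a gamma chain and gives that sheet its binding sites for cells. In the gut, fibroblasts and related stromal cells make most of the fibrillar collagen, decorin and lumican. Basement membrane chains are made by stromal, endothelial and epithelial cells alike. Sparc, Vim, Fn1 and Fstl1 are expressed by fibroblasts but also by other cells, among them endothelial cells and, for Vim and Fn1, macrophages.

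Signals are the authors' RMA values, taken here as log2, a base read from their range. All differences are circPan3-/- minus circPan3+/+. Named genes were shifted towards higher values on the circPan3-/- array, by a median of 0.36 over the 13671 that passed a filter on low values (a mean signal of at least 2.53, the median over the whole table). The shift grew with level, from 0.19 in the dimmest eighth of these genes to 0.56 in the brightest. The 95th percentile of the 5222 negative control rows is called the control limit of an array, 5.56 for circPan3-/- and 5.06 for circPan3+/+. Lgr5, whose promoter drives the sorted reporter, had 7.02 in circPan3-/- cells and 10.91 in circPan3+/+ cells. Values repeated in more than 1 row made up 4.20% of the circPan3-/- column but 69.1% of the circPan3+/+ column, so the columns may not have been processed alike. All 14 epithelial markers examined were above the limit in circPan3-/- cells and 12 of them in circPan3+/+ cells. Pan3 had 5.64 in circPan3-/- cells and 4.84 in circPan3+/+ cells, from 1 value for the whole locus, which does not check the loss of the circle.

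The matrix genes that stood apart were lower in circPan3-/- cells, and most matrix genes were dim. Of the 58 genes, 52 (89.7%) lay under the control limit on both arrays, as did 78.5% of all named genes. The exceptions were Sparc and Vim, above the limit on both arrays, and Fn1, Dcn, Fstl1 and Lamc1, above it on the circPan3+/+ array. Of the 55 genes that passed the filter, 7 were at least 2-fold lower in circPan3-/- cells, where 2.83% of named genes were, and 0 were at least 2-fold higher, where 9.74% of named genes were. The 7 were Sparc, Fn1, Vim, Dcn, Lama4, Lamb1 and Fstl1, and they are 12.7% of the 55. At 1.5-fold, 9 were lower and 1, Lamb2, was higher, where 5.62% and 30.5% of named genes were. After centring, loess on level or quantile normalization, 8 genes were lower, where 5.04%, 5.10% and 4.56% of named genes were, and 0 were higher, where 3.89%, 3.34% and 4.32% were. The median over the 55 as deposited was 0.07, against 0.36 over named genes, and 51 of the 55 lay below 0.36, a value that splits named genes evenly. RNA of a bulk sort cannot tell fewer cells of a type from less RNA per cell.

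Because the lower signal was often under its control limit, most of these differences are not measured folds. Sparc and Vim alone were measured on both arrays. For Dcn and Fn1 the circPan3-/- value was under the limit and only a bound can be given, computed from the circPan3+/+ value to the circPan3-/- limit. For Fstl1, Lama4 and Lamb1 the limits allow no fold. Counted with such bounds, 2 of the 55 genes were at least 2-fold lower, where 0.563% of named genes were, and 0 were higher, where 3.58% were. Among genes with both values under the limits, 2 of 49 matrix genes (Lama4 and Lamb1) were at least 2-fold lower and 0 higher, where 1.69% and 6.61% of such named genes were.

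Repeated values were common among the matrix genes as well. The circPan3+/+ signal of 38 of the 58 also stood in some other row, whereas every circPan3-/- signal was its own. Among the 36 genes with a repeated value past the filter, 1 was at least 2-fold lower and 0 higher, where 1.58% and 8.12% of such named genes were. That gene was Fn1, whose value stood in 10 rows. Among the 19 with values of their own, 6 were at least 2-fold lower and 0 higher, where 5.54% and 13.3% of such named genes were. The part of the repeated values in these differences was not tested.

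**Figure D1:**
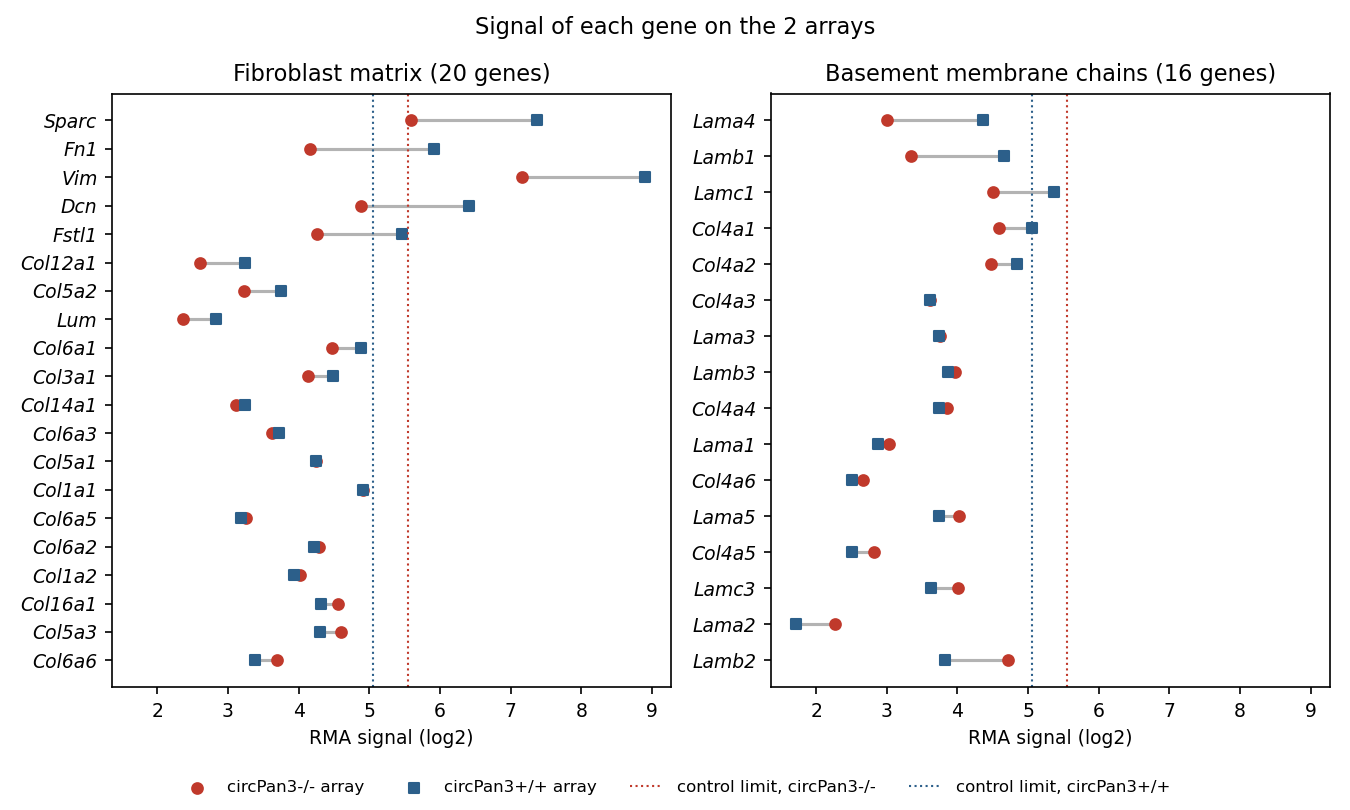
RMA signal (log2) of each fibroblast matrix gene (left) and basement membrane chain (right) on the circPan3-/- array (red circles) and the circPan3+/+ array (blue squares). Grey lines join the 2 values of a gene and dotted lines mark each array's control limit, 5.56 on circPan3-/- and 5.06 on circPan3+/+. Genes run from the lowest difference at the top to the highest at the bottom, and Sparc and Vim have both values above the limits.

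Within the fibroblast matrix, the secreted glycoproteins, the proteoglycan decorin and vimentin were lower in circPan3-/- cells, while the collagens stayed within 2-fold. Sparc encodes a collagen-binding protein of the matrix that is also called osteonectin. Sparc had a signal of 5.59 in circPan3-/- cells and 7.37 in circPan3+/+ cells, which is 3.44-fold lower (-1.78). The circPan3-/- value lay just above its limit of 5.56, so this fold rests on a value at the edge of the control range. Vim, the intermediate filament protein of mesenchymal cells and leukocytes, had 7.16 in circPan3-/- cells and 8.91 in circPan3+/+ cells, which is 3.37-fold lower (-1.75). Both values lay well above the limits.

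Fn1 encodes fibronectin, which cells assemble into fibrils through integrins. Its signal was 4.17 in circPan3-/- cells and 5.92 in circPan3+/+ cells, a difference of -1.75 that the limits reduce to at least 1.29-fold lower. Dcn encodes decorin, a small leucine-rich proteoglycan that coats collagen fibrils. It had 4.89 in circPan3-/- cells and 6.41 in circPan3+/+ cells, which gives -1.52 and, with the limit, at least 1.80-fold lower. Fstl1, a secreted follistatin-like glycoprotein, had 4.26 in circPan3-/- cells and 5.46 in circPan3+/+ cells, a difference of -1.20. Its circPan3+/+ value did not reach the circPan3-/- limit. Lum encodes lumican, another proteoglycan of collagen fibrils. It had 2.36 in circPan3-/- cells and 2.83 in circPan3+/+ cells, a difference of -0.47 between values well under the limits.

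The 14 collagens of this class had a median difference of 0.00 and ran from -0.64 to 0.31, so 0 of 14 were at least 2-fold apart, where 2.83% of named genes were lower and 9.74% higher. All 14 were under both control limits. Collagen I, the main fibrillar collagen of connective tissue, had nearly equal values. Col1a1 had 4.92 in circPan3-/- cells and 4.91 in circPan3+/+ cells, and Col1a2 had 4.01 in circPan3-/- cells and 3.93 in circPan3+/+ cells. Col3a1, which encodes the chain of collagen III, had 4.13 in circPan3-/- cells and 4.48 in circPan3+/+ cells. The furthest down were Col12a1, a collagen that sits on the surface of fibrils, with 2.60 in circPan3-/- cells and 3.24 in circPan3+/+ cells, and Col5a2. Col5a2, a chain of the collagen V that nucleates fibrils, had 3.23 in circPan3-/- cells and 3.75 in circPan3+/+ cells. Its partner chain Col5a1 had 4.25 on each array. The circPan3+/+ value of Col1a1 stood in 70 rows, that of Col3a1 in 104 and that of Col5a1 in 127. That of Col5a2 stood in 510 and that of Col12a1 in 759, while that of Col1a2 stood in no other row. With values under the limits and many of them repeated, a lack of difference cannot be read from these collagens. Collagen VI forms beaded filaments at the border of the basement membrane, and its chains ran from Col6a1 at -0.42 to Col6a6 at 0.31. The furthest up of the class were Col6a6, with 3.70 in circPan3-/- cells and 3.39 in circPan3+/+ cells, and Col5a3, with 4.61 in circPan3-/- cells and 4.31 in circPan3+/+ cells. Relative to the shift of named genes all 20 genes of the fibroblast matrix were lower, but Col6a6 was at 0.06 after a loess correction for level.

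Promoter windows of 3 of these lower genes are shown, because the genes differ in the same direction and Sparc and Vim are the ones measured on both arrays. Each window runs from 250 bases before to 50 after the RefSeq start (GRCm38.p6) and is written in the direction of the gene. Capitals mark matches on either strand to the TATA box (searched as TATAAA), the CCAAT box (its 5 letters) or the GC box (searched as GGGCGG), and no letters belong to more than 1 motif in the windows shown. The Sparc window is chr11:55420031-55420330 on the minus strand, the Vim window chr2:13574061-13574360 on the plus strand and the Fstl1 window chr16:37776805-37777104 on the plus strand.
Sparc: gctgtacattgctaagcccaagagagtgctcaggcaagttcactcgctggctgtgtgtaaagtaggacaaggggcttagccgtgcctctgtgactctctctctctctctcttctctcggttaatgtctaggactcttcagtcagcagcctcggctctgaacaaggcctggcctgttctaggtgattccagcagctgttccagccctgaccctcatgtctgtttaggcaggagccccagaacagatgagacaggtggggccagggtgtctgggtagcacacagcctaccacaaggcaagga
Vim: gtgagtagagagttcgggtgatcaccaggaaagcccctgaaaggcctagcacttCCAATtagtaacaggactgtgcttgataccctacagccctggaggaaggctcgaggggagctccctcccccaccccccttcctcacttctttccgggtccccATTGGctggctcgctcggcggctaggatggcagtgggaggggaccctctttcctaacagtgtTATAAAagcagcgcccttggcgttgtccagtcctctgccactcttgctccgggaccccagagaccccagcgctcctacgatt
Fstl1: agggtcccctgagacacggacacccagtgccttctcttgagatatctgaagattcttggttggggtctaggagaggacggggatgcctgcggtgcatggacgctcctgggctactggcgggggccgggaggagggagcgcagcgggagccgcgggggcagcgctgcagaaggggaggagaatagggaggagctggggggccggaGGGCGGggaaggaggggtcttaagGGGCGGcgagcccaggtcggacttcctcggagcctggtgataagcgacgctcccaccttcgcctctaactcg
Vim holds 1 TATA box and 2 CCAAT boxes, Fstl1 holds 2 GC boxes, and Sparc holds 0 matches to any of them. The GC content of the windows was 55.3% for Sparc, 59.3% for Vim and 66.7% for Fstl1. The TATA box letters stood in 13.6% of all 32851 windows of the RefSeq table, the CCAAT box in 37.4% and the GC box in 35.7%. Of the 58 matrix genes 41 were in the table, with 45 windows, of which 6 held a TATA box, 13 a CCAAT box and 25 a GC box. The AP-1 motif, TGANTCA, was searched in the same way and stood in 1 of the 45 windows and in 7.81% of all windows. A match is a run of letters and not a bound site.

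Basement membrane chains split by chain. Lama4, Lamb1 and Lamc1 were the lowest of the 16, and the collagen IV pair Col4a1 and Col4a2 came next, while the other chains lay close to 0 or above it, up to 0.89. Lama4 encodes the alpha chain typical of vessel walls. It had 3.01 in circPan3-/- cells and 4.37 in circPan3+/+ cells, a difference of -1.36. Lamb1 encodes a beta chain found in many laminins, and had 3.34 in circPan3-/- cells and 4.66 in circPan3+/+ cells, a difference of -1.32. These values are under the limits on both arrays.

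Lamc1 encodes the gamma chain that most laminins share. It had 4.50 in circPan3-/- cells and 5.37 in circPan3+/+ cells, a difference of -0.88, and its circPan3+/+ value did not reach the circPan3-/- limit. Lamc1 was the gene that passed 2-fold when the shift of named genes was removed, at -1.23 after centring and -1.34 after loess. The chains Lama4, Lamb1 and Lamc1 assemble with each other into a laminin of blood vessels, so the 3 lowest chains are partners in 1 trimer. That grouping was made after their values were seen.

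Lama5, Lama3 and Lamb3 were not among the lower chains, but all their values were under the limits. Lama5, the alpha chain beneath mature intestinal epithelium, had 4.03 in circPan3-/- cells and 3.75 in circPan3+/+ cells. Lama3 and Lamb3, chains of the laminin that anchors epithelia, differed by 0.01 and 0.10. The circPan3+/+ value of Lama5 and Lama3 was the same and stood in 510 rows, and that of Lamb3 stood in 206. Those of Lama4, Lamb1 and Lamc1 stood in no other row. A lack of difference therefore cannot be read from Lama5, Lama3 and Lamb3. Lamb2, a beta chain that can take the place of the one from Lamb1, was the highest of all 58 genes. It had 4.71 in circPan3-/- cells and 3.83 in circPan3+/+ cells, which gives 0.89 and stands 0.53 above the median of named genes, with both values under the limits. Lamc3, with 4.0 in circPan3-/- cells and 3.63 in circPan3+/+ cells, was the second highest of these chains past the filter at 0.37, and Lama1 stood at 0.16. Lama2, an alpha chain of muscle and stroma, was at 0.55 but did not pass the filter, with signals of 2.27 in circPan3-/- cells and 1.72 in circPan3+/+ cells.

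Collagen IV is built from 6 chains whose genes lie in head-to-head pairs. Col4a1 and Col4a2, the chains found in all basement membranes, lay side by side in the order of differences. Col4a1 had 4.59 in circPan3-/- cells and 5.05 in circPan3+/+ cells, a difference of -0.47, and its circPan3+/+ value was just under the limit of 5.06. Col4a2 had 4.47 in circPan3-/- cells and 4.84 in circPan3+/+ cells, a difference of -0.37. Of the other pairs, Col4a3 had 3.61 in circPan3-/- cells and 3.62 in circPan3+/+ cells, and Col4a4 differed by 0.11. Col4a5 and Col4a6, on chromosome X, differed by 0.31 and 0.16. No collagen IV chain was 2-fold apart (0 of 6, against 2.83% of named genes lower and 9.74% higher), and all were under both limits, as were 78.5% of named genes.

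The promoter windows of Col4a1 and Col4a2 are given because the pair is transcribed from a shared region, together with that of Lamb1, the lower laminin chain with a window in the table. The Lamb1 window is chr12:31265043-31265342 on the plus strand, the Col4a1 window chr8:11312777-11313076 on the minus strand and the Col4a2 window chr8:11312555-11312854 on the plus strand, with capitals as above.
Lamb1: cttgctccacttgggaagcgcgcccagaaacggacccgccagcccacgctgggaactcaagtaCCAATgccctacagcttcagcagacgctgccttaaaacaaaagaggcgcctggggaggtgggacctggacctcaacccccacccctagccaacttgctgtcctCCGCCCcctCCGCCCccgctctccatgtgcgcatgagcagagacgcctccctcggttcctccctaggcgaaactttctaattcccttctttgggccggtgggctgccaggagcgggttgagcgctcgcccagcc
Col4a1: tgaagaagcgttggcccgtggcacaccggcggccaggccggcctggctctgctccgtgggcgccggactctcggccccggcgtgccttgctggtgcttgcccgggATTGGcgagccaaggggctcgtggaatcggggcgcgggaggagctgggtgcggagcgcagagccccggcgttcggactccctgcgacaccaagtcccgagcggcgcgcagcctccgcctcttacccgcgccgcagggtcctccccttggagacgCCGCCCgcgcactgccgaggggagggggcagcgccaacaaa
Col4a2: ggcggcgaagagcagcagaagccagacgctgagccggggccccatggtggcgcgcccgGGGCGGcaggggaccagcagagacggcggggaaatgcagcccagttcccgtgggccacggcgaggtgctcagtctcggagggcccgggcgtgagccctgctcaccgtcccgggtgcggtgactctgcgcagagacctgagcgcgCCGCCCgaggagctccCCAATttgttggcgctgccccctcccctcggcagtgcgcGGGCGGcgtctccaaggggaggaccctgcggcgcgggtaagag
The Col4a1 and Col4a2 windows overlap by 78 bases on opposite strands. Their GC content was 74.0% and 73.7%. Each holds 1 CCAAT box, and Col4a1 holds 1 GC box and Col4a2 holds 3. The GC box of Col4a1 lies in the overlap and is the same stretch as 1 of the 3 in Col4a2. Lamb1 holds 1 CCAAT box and 2 GC boxes, and 63.7% of its bases are G or C.

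Set against each other, the median difference was -0.24 in the 20 genes of the fibroblast matrix and 0.10 in the 15 basement membrane chains past the filter, which is -0.34 between the medians. This order did not hold under every choice. With a filter at the upper quartile of all rows, 12 and 4 genes were left and the fibroblast matrix lay 0.031 higher. Among the 11 and 5 genes whose values no other row held it lay 0.46 higher. Without Sparc, Vim, Fn1 and Fstl1, which are not particular to fibroblasts, the fibroblast matrix had a median of -0.051 and lay -0.16 from the basement membrane chains. The 6 genes of the fibroblast matrix that are not collagens had a median of -1.64, and its 14 collagens one of 0.00. The line within the class thus ran between Sparc, Fn1, Vim, Dcn and Fstl1 on one side and the collagens and Lum on the other, a split seen after the values were known. The same 5 genes were those above the circPan3+/+ limit, and the other 15 of the class were under both limits. Kind of protein and level of signal therefore cannot be told apart here.

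**Figure D2:**
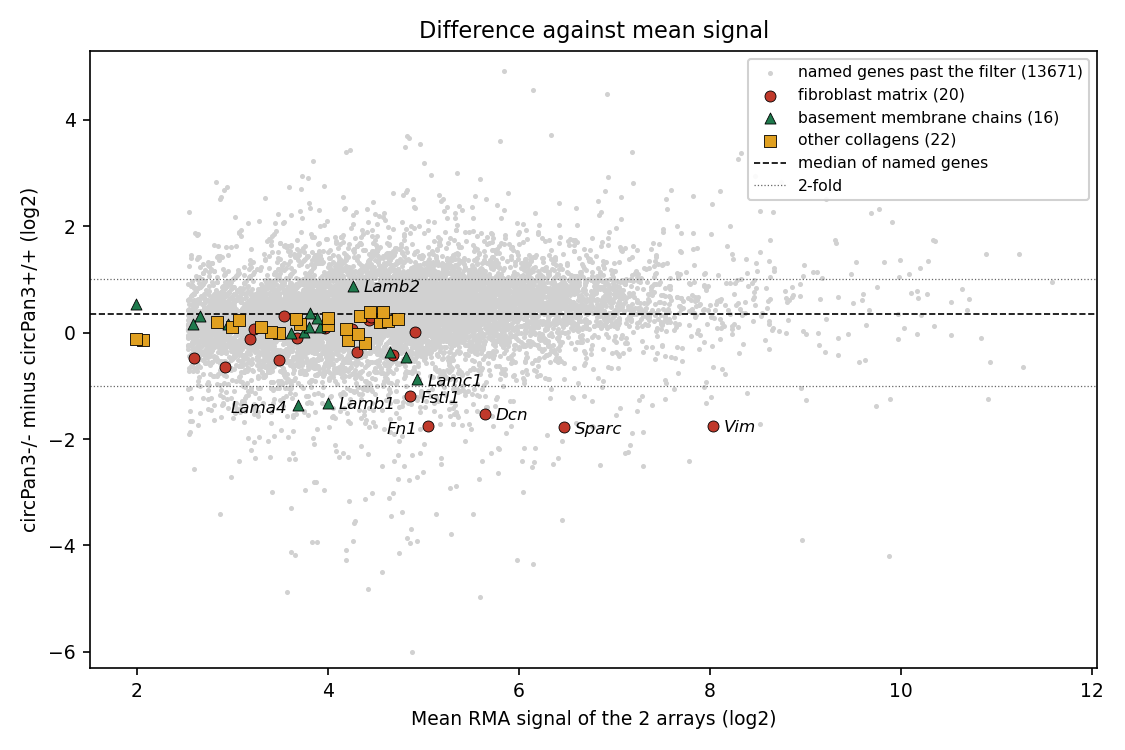
Difference between the arrays (circPan3-/- minus circPan3+/+, log2) against the mean of the 2 signals (log2), for 13671 named genes past the filter (grey) and the 58 matrix genes by class. The dashed line is the median of named genes, 0.36, and dotted lines mark 2-fold. The 7 genes under the lower dotted line are spread over the range of levels, with Lama4 at the dim end and Vim at the bright end, while the collagens lie close to or under the dashed line.

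The 22 other collagens include those of cartilage, of cell membranes and of basement membrane borders. They kept to a narrow range, from -0.19 to 0.40 over the 20 past the filter, with a median of 0.19, and 0 of 20 were 2-fold apart, where 2.83% of named genes were lower and 9.74% higher. All 22 lay under both control limits. The lowest were Col18a1 at -0.19 and Col15a1 at -0.13, collagens that bridge basement membranes to the tissue beneath. Col18a1 had 4.29 in circPan3-/- cells and 4.48 in circPan3+/+ cells, and Col15a1 had 4.14 in circPan3-/- cells and 4.28 in circPan3+/+ cells. The highest were Col27a1, with 4.78 in circPan3-/- cells and 4.38 in circPan3+/+ cells, and the cartilage collagen Col9a3, with 4.64 in circPan3-/- cells and 4.25 in circPan3+/+ cells. Their differences of 0.40 and 0.38 were close to the shift of named genes. Other cartilage chains, Col2a1 and Col11a2, were each at 0.21. Over all 42 collagens, the differences of the 40 past the filter had a median of 0.09.

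Genes that process collagen were measured beside the chains. This list holds hydroxylases, chaperones, procollagen proteases and cross-linking oxidases. Of 27 genes found, 25 passed the filter, and 1 was at least 2-fold lower and 0 higher, where 2.83% and 9.74% of named genes were, with a median of -0.03. The lower one was Lox, the lysyl oxidase that cross-links collagen and elastin, with 2.55 in circPan3-/- cells and 4.25 in circPan3+/+ cells. The circPan3+/+ value of Lox stood in 127 rows. P4ha1, a catalytic subunit of prolyl hydroxylase, had 4.10 in circPan3-/- cells and 5.06 in circPan3+/+ cells, and Loxl1 differed by -0.86. Under both limits were 25 of the 27 genes found, among them Lox, P4ha1 and Loxl1. P4hb, which serves protein folding in every secretory cell as well as proline hydroxylation, had 9.22 in circPan3-/- cells and 8.52 in circPan3+/+ cells. Mia3, which helps load procollagen into transport vesicles, differed by 0.62, and Ppib, a folding enzyme, by 0.54. After loess, 6 of the 25 were at least 2-fold lower, where 5.10% of named genes were.

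Partners of the basement membrane differed in both directions. Of 12 past the filter, 1 was at least 2-fold lower and 2 higher, where 2.83% and 9.74% of named genes were, with a median of 0.16. After centring, loess or quantile normalization 1 was lower and 1 higher. Of named genes 5.04%, 5.10% and 4.56% were then lower and 3.89%, 3.34% and 4.32% higher. Nid1 encodes nidogen, which links the laminin and collagen IV networks by binding the gamma chain of Lamc1. It had 3.94 in circPan3-/- cells and 5.55 in circPan3+/+ cells, a difference of -1.61 beside the -0.88 of Lamc1. The circPan3+/+ value of Nid1 did not reach the circPan3-/- limit, so the limits allow no fold. Dag1 encodes dystroglycan, a laminin receptor of epithelium, and had 6.65 in circPan3-/- cells and 5.61 in circPan3+/+ cells, or 2.04-fold higher as deposited, but less than 2-fold under each of those scalings. Smoc2, a matrix protein also used as a marker of crypt base stem cells, had 5.43 in circPan3-/- cells and 3.49 in circPan3+/+ cells. The circPan3+/+ value of Smoc2 stood in 639 rows. Of the 14 partners found, 12 were under both limits, Smoc2 among them.

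Receptors for the matrix were found on both sides. Of 21 past the filter, 3 were at least 2-fold lower and 2 higher, where 2.83% and 9.74% of named genes were, so that the higher ones were about as frequent as among all genes. The median was 0.17. The lowest were Itgb3 at -1.33, Itga5 at -1.21 and Sdc3 at -1.05. Itga5, the alpha subunit of the classical fibronectin receptor, had 4.53 in circPan3-/- cells and 5.74 in circPan3+/+ cells, or at least 1.13-fold lower, beside the -1.75 of Fn1. The highest were Sdc4 at 1.11, the collagen and laminin receptor subunit Itga2 at 1.04, and Itga6 at 0.99. Itga6, part of the laminin receptor that holds epithelium to its basement membrane, had 7.02 in circPan3-/- cells and 6.03 in circPan3+/+ cells, or 1.99-fold higher. Relative to the shift of named genes or after loess, Itga2 and Sdc4 were no longer 2-fold apart.

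Markers of cells other than stem cells were measured on the same arrays. Myeloid markers were lower in circPan3-/- cells, with 11 of 17 at least 2-fold lower, 0 higher and a median of -1.56, where 2.83% of named genes were lower and 9.74% higher. With bounds 4 of the 17 were at least 2-fold lower, where 0.563% of named genes were. Lyz2 and C1qb, the 2 markers above both limits, differed by -0.03 and -0.46. The median signal of myeloid markers was 4.38 in circPan3-/- cells and 5.87 in circPan3+/+ cells. Cd68, a macrophage marker, had 4.21 in circPan3-/- cells and 6.97 in circPan3+/+ cells. Of 13 endothelial markers, 2 were at least 2-fold lower and 0 higher, against the same shares of named genes, with a median of -0.31. After centring, loess or quantile normalization 6 of the 13 were lower, where 5.04%, 5.10% and 4.56% of named genes were. With bounds 1 of the 13 was, where 0.563% of named genes were. Differences were below 0 in 9 of them and above it in 4, up to 0.59 for Tek. Cdh5, the 1 marker above both limits, was 1.81-fold lower. The lowest was Emcn, a sialomucin of capillaries and veins, with 3.90 in circPan3-/- cells and 6.78 in circPan3+/+ cells. Next was Kdr, a receptor for vascular endothelial growth factor, with 4.31 in circPan3-/- cells and 6.03 in circPan3+/+ cells. With the limits, Emcn was at least 2.34-fold lower and Kdr at least 1.39-fold lower. The endothelial markers had a median signal of 4.31 in circPan3-/- cells and 5.55 in circPan3+/+ cells.

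Fibroblast markers did not move as 1 group. Of 15 past the filter, 2 were at least 2-fold lower and 1 was higher, where 2.83% and 9.74% of named genes were, and the median was 0.16. The lower ones were 4 after centring and 3 after loess or quantile normalization, where 5.04%, 5.10% and 4.56% of named genes were. Pdpn, podoplanin, which fibroblasts, lymphatic vessels and some macrophages express, had 3.58 in circPan3-/- cells and 5.88 in circPan3+/+ cells. Cd34, found on stromal and endothelial cells, differed by -1.52, while the dermatopontin gene Dpt differed by 1.36 between values under the limits. Their median signal was 3.80 in circPan3-/- cells and 4.0 in circPan3+/+ cells, and 14 of the 17 found were under both limits. Smooth muscle markers, from cells that also make matrix, were at least 2-fold higher in 4 of 10, where 9.74% of named genes were, with 0 lower and a median of 0.76. After centring or quantile normalization 4 of the 10 were still higher, where 3.89% and 4.32% of named genes were. After loess 1 of the 10 was higher, and likewise 1 with bounds, where 3.34% and 3.58% of named genes were. Acta2, smooth muscle actin, had 6.33 in circPan3-/- cells and 4.84 in circPan3+/+ cells. The circPan3+/+ value of Acta2 stood in 143 rows. Of the other higher ones, that of Myh11 stood in 510 rows, that of Myl9 in 4 and that of Tagln in 1. Epithelial markers had a median of 0.75 over 14 genes, with a median signal of 8.01 in circPan3-/- cells and 7.65 in circPan3+/+ cells. At least 2-fold higher were 6 and lower 0, where 9.74% and 2.83% of named genes were. After loess their median was 0.16, with 2 higher and 1 lower, where 3.34% and 5.10% of named genes were. The part of myeloid, endothelial and other cells in the lower signals of Sparc, Vim, Fn1, Dcn, Fstl1, Lama4 and Lamb1 was not tested.

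**Figure D3:**
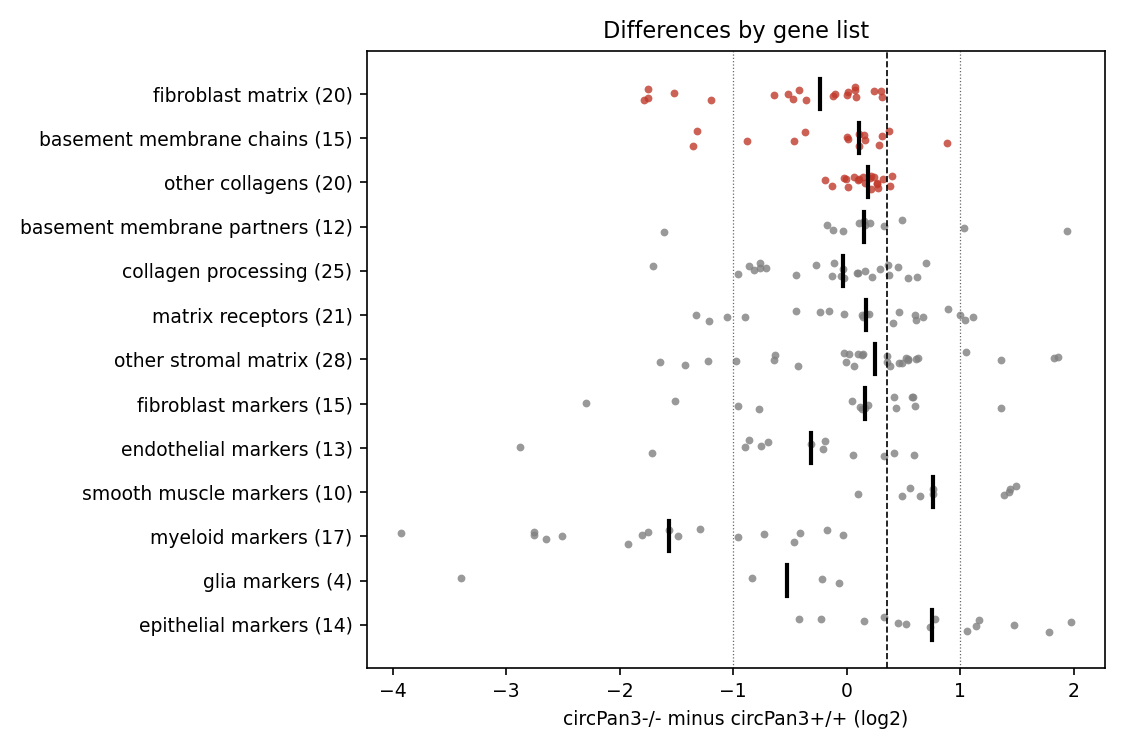
Difference between the arrays (circPan3-/- minus circPan3+/+, log2) of each gene past the filter, for the 3 classes of matrix genes (red) and for other gene lists (grey), with the number of genes in brackets. Black bars are medians, the dashed line is the median of named genes, 0.36, and dotted lines mark 2-fold. Of the lists plotted, myeloid markers have the lowest median, -1.56, and smooth muscle markers the highest, 0.76, while the fibroblast matrix trails to the left with 5 genes past 2-fold.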

How the data were processed

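Total RNA of sorted intestinal stem cells was measured on 2 Clariom D arrays, 1 per genotype. The deposited values were made by the authors with Affymetrix Power Tools and RMA, per the submitters' processing notes; their versions and the build were not given in the sources used here. They were read as log2 signal per transcript cluster, since the deposited table states no unit.

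Rows with 1 distinct symbol were named from the platform annotation, with current symbols and biotypes from RefSeq (GRCm38.p6). Of 72688 rows, 30604 had 1 symbol and 2146 several. Predicted models and noncoding genes were left out, and the brightest row stood for a gene. Called means at least 2-fold apart. With 1 array per genotype no test was possible, and the number of arrays limits precision. The genes, classes and lists were chosen with earlier results of these data known. Both values are given for genes above a control limit on at least 1 array and for the 2 furthest up and down in each class, and of other lists up to 3 genes each way; further genes were named for their role after their values were seen. Alternatives were centring, loess (span 0.3), quantile normalization, other filters, a 1.5-fold threshold, bounds from the control limits, other class definitions and means. Functions were tested on simulated data. Python 3.11.15, pandas 2.3.3 and statsmodels 0.14.6 were used.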

Additional observations from a re-analysis of the deposited data

How the results depend on the processing

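No paired analysis was possible because each genotype has 1 array, and for the same reason no array could be left out. The count of 7 genes at least 2-fold apart was 8 after centring, loess or quantile normalization, with Lamc1 added, and 2 when values under a control limit were treated as bounds, which leaves Sparc and Vim. It was 5 to 10 under the other choices, and of the 7 genes none lost its call or changed direction under a scaling. The medians moved with scaling by about the shift of named genes. For all matrix genes past the filter the median of 0.07 was -0.29 after centring, -0.24 after loess and -0.26 after quantile normalization. For basement membrane chains it was -0.25, -0.21 and -0.22, and for the fibroblast matrix -0.60, -0.55 and -0.52, in the same order. With a filter at the upper quartile the medians were -0.42 over 4 basement membrane chains and -0.39 over 12 fibroblast matrix genes, 0.031 apart. Among genes above a limit on at least 1 array they were -1.64 over 6 genes, -0.88 for Lamc1 alone and -1.75 over 5 fibroblast matrix genes, -0.88 apart. Among genes whose values no other row held they were -0.42 over 19 genes, -0.88 over 5 basement membrane chains and -0.42 over 11 fibroblast matrix genes, 0.46 apart. The fibroblast matrix without Sparc, Vim, Fn1 and Fstl1 had -0.051, which is -0.16 from the basement membrane chains. Means in place of medians were -0.16 for all, -0.13 for basement membrane chains and -0.48 for fibroblast matrix; the cause was not tested. Signal near the level of negative controls limits 52 of the 58 genes.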

Other observations

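Other genes of the stromal matrix, listed apart from the 58, differed in both directions. Of 28 past the filter, 3 were at least 2-fold lower and 4 higher in circPan3-/- cells, where 2.83% and 9.74% of named genes were, and 0 were apart with bounds. The median was 0.25, and 27 of the 32 found were under both control limits. The lowest were matricellular genes of remodelling tissue. Postn, periostin, had 1.99 in circPan3-/- cells and 3.63 in circPan3+/+ cells. Tnc, tenascin C, had 3.35 in circPan3-/- cells and 4.77 in circPan3+/+ cells, and Vcan, the large proteoglycan versican, had 2.52 in circPan3-/- cells and 3.75 in circPan3+/+ cells. The highest were small leucine-rich proteoglycans and Dpt. Prelp had 5.73 in circPan3-/- cells and 3.87 in circPan3+/+ cells, or at least 1.59-fold higher, and Ogn, osteoglycin, had 3.55 in circPan3-/- cells and 1.72 in circPan3+/+ cells. Dcn, of the same protein family, was lower at -1.52, so as deposited these 3 proteoglycans did not share a direction. Bgn, also of that family, had 5.51 in circPan3-/- cells and 5.52 in circPan3+/+ cells, and Fmod, Aspn and Omd did not pass the filter. The circPan3+/+ values of Postn, Tnc and Vcan stood in 159, 73 and 510 rows, and those of Prelp and Ogn in 206 and 1408. Both values of Ogn were under the limits.

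Of 4 glial markers past the filter 1 was at least 2-fold lower and 0 higher, where 2.83% and 9.74% of named genes were. That gene was Ednrb, an endothelin receptor of enteric glia and of other cells, with 3.82 in circPan3-/- cells and 7.22 in circPan3+/+ cells, or at least 3.17-fold lower. Of 6 crypt stem markers 2 were at least 2-fold lower, Lgr5 and Olfm4, and 3 higher, Smoc2, Axin2 and Sox9, against the same shares of named genes, and Sox9 was under 2-fold after loess, at 0.86. Col7a1 and Col6a4 stood in rows shared with another gene and were left out. The row of Col7a1 and Mir711 had 4.80 in circPan3-/- cells and 4.44 in circPan3+/+ cells, and that of Col6a4 and Dvwa had 3.37 in circPan3-/- cells and 3.39 in circPan3+/+ cells.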
